A study of Mus musculus with 3 samples.

Results

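The genes described here are 300 TEC, sense_intronic and sense_overlapping genes that were the most highly counted of their kind in chromatin-bound RNA of mouse macrophages. Of the 55450 genes of the GENCODE M21 annotation with a row, 3572 had only transcripts of these 3 classes. Among them 505 had a mean expected count of at least 200 over the 3 libraries, and the 300 with the highest means were taken. An expected count is the number of sequenced fragments that the authors' procedure assigned to a gene. The members comprised 270 TEC genes, 28 sense_intronic genes, Gm43813 with transcripts of both classes, and the single sense_overlapping gene BX649560.1. The members were selected on these expected counts, so their counts and levels are given as a description without a test. The lowest members, Gm42979 and Gm44550, and the first gene left out, Gm48137, shared a mean count of 337 and were ordered by identifier. Just inside them stood Gm43162 at 338, and the next genes outside were Gm42576 at 335 and Gm44250 at 332.

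A TEC gene is a transcribed stretch that the annotators recorded from sequence evidence and whose structure still awaits experimental proof, usually as 1 exon with no known product. A sense_intronic gene is a noncoding transcript that lies within an intron of another gene on the same strand and touches none of its exons. A sense_overlapping gene contains or overlaps another gene on the same strand. The chromatin fraction retains RNA that is still being made by RNA polymerase, so introns are present there before splicing removes them. A fragment from the unspliced RNA of the surrounding gene and a fragment from a separate intronic transcript have the same sequence, and cannot be told apart in these data.

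The cells were bone-marrow-derived macrophages of C57BL/6J mice, primary phagocytes grown from marrow, and chromatin-bound total RNA was sequenced after removal of ribosomal RNA. All libraries had the same treatment. They were kept for 12 h in 100 ng/ml Lipid A, the membrane anchor of bacterial lipopolysaccharide and a TLR4 ligand, spent 12 h in medium free of it, and met 100 ng/ml again over the last 15 min. The series holds 1 group of 3 biological replicates made from 1000, 250 and 500 ng of RNA in replicates 1, 2 and 3, with 1 donor identifier, so part of their spread may be technical. No untreated group was analysed here, and the values below do not show what Lipid A changed. Age is not given in the labels.

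The libraries held 14419439 to 24090460 expected counts in annotated genes. All 8 macrophage markers reached at least 1 TPM, with summed levels from 869 to 978 TPM per library, where TPM is the share of transcripts in a library after division by length. Of 26 markers of neutrophils, lymphocytes, dendritic, stromal and erythroid or mast cells, 1 reached that level. The summed level of the 4 dendritic markers lay between 1.66 and 2.03 TPM, and that of each other list stayed under 2 TPM in every library. Cd3e, Nkg7, Elane, Pdgfra, Cpa3 and Mcpt8 were listed at 0. In bulk RNA, fewer cells of a type and less RNA per cell cannot be told apart.

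The members took 1.62, 1.41 and 1.32% of the expected counts in replicates 1, 2 and 3, or 1.45 ± 0.152% (SD, n = 3, as for every ± below unless stated). All 3572 genes of the 3 classes took 2.29, 2.04 and 1.91%. The median member stood at 16.2 TPM, with quartiles of 11.5 and 24.2 TPM and a range from 4.27 to 116 TPM. On the log2(TPM + 1) scale, the median level of the members was 4.09 ± 0.14, against 4.79 ± 0.04 for the 6039 genes of any class, members included, with a mean count of at least 337. At least 10 TPM was reached by 242 of 300 members, against 89.9% of those 6039 genes, and at least 50 TPM by 19 members, against 26.7%. Their annotated spans had a median of 2918.5 bases and ranged from 865 to 30942 bases. The median transcript length in the gene table was 2864.5 bases for members and 2662 bases for the 6039 genes. Of the 300, 291 had a single exon. The counts of 269 members were whole numbers in every library, to within 0.005, as they are when no fragment was divided with another annotated transcript. Among the rest, Gm20236 and Gm37094 had identical values in every library, at 17.5, 15.8 and 12.55 TPM. The authors' SD of their counts was 43.1% of the count, so the level of each is uncertain.

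Gm43197, a TEC gene (chr6:3336772-3339354, mm10, minus strand) in an intron of the gene Gm20559, had the highest level of all members. It stood at 148, 93.0 and 107 TPM in replicates 1, 2 and 3, or 116 ± 28.6 TPM. Gm49730, a TEC gene that overlaps an exon of Parp14, an interferon-induced ADP-ribosyltransferase gene, followed at 109, 68.7 and 78.6 TPM. Replicate 1 was the highest library for both genes and replicate 2 the lowest. Gm37589 (chr3:60535751-60539744, plus strand), in the first intron of Mbnl1, which encodes a splicing regulator, had 89.0, 73.4 and 75.5 TPM. Gm45640, in an intron of the chromatin remodeller gene Chd9, had 80.9, 80.2 and 68.4 TPM. The order of these neighbours is not fixed by the libraries, since the values of Gm45640, Gm37589 and Gm49730 overlap. 9430034N14Rik, in an intron of Tor1aip1, a gene of the inner nuclear membrane, had 84.0, 64.7 and 69.8 TPM. 5330406M23Rik, in an intron of the long noncoding RNA gene Lncpint, had 86.4, 52.1 and 65.3 TPM.

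The leading sense_intronic gene was Gm29488 (chr1:131406812-131409213, minus strand), in an intron of Srgap2, at 83.6, 70.5 and 72.2 TPM. Gm3513, in the first intron of the folliculin partner gene Fnip2, had 84.9, 47.7 and 73.9 TPM. Gm47920, in the first intron of the transcriptional coregulator gene Zmiz1, had 62.1, 54.6 and 64.7 TPM. All 3 were at their lowest in replicate 2. Gm47664 lies in Elmo1, which acts in the uptake of dying cells, and had 39.3, 33.7 and 35.3 TPM. Gm42659, in the actin capping gene Capza1, had 34.2, 25.8 and 29.8 TPM. Gm43328, in the small GTPase gene Rap1a, differed little between libraries, at 26.7, 27.1 and 27.5 TPM. BX649560.1 overlaps an exon of the collagen gene Col20a1 and had 20.8, 16.04 and 18.9 TPM, above the 4.53, 5.54 and 4.06 TPM of Col20a1 in every library.

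**Figure D1:**
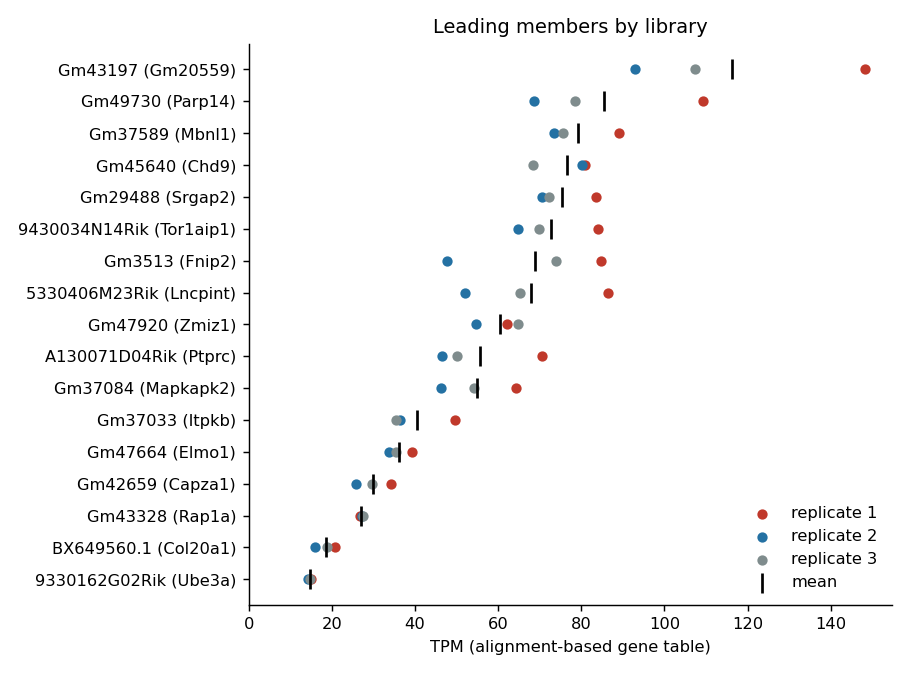
TPM of the leading members in each library, with the gene that each overlaps in parentheses. Points are the 3 libraries and the black mark is their mean. Gm43197 reached 148 TPM in replicate 1 against 93.0 and 107 TPM in the others, whereas 9330162G02Rik, the member with the most counts, lay near 15 TPM in all 3.

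The member with the most counts was not among the highest per length. 9330162G02Rik (chr7:59223847-59254788, minus strand) spans 30942 bases opposite Ube3a, a ubiquitin ligase gene that is imprinted in neurons. It gathered 5786, 6830 and 8947 counts but 15.1, 14.2 and 14.7 TPM, against 81.3 ± 6.58 TPM for Ube3a. Gm37084 (chr1:131086252-131092149, minus strand) lies in the first intron of Mapkapk2, a kinase gene downstream of p38 that controls cytokine mRNA, and had 4577, 4092 and 6072 counts. Its level was 64.4, 46.1 and 54.1 TPM, above Mapkapk2 itself at 34.9, 21 and 27.0 TPM in every library. A130071D04Rik (chr1:138161820-138167683, minus strand) lies in Ptprc, which encodes the leukocyte phosphatase CD45, and had 4984, 4103 and 5583 counts. Its level of 70.6, 46.6 and 50.02 TPM was far below the 648 ± 78.3 TPM of Ptprc. Gm37033, in the inositol kinase gene Itpkb, had 4434, 4055 and 4984 counts and 49.7, 36.4 and 35.3 TPM.

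Most members lay inside other genes. By the annotation, 235 of the 300 (78.3%) lay in an intron of a gene on the same strand, 16 (5.33%) overlapped an exon of such a gene, 36 (12.0%) overlapped only a gene on the opposite strand, and 13 (4.33%) overlapped no other gene. All 28 sense_intronic members were intronic, as their class requires, and so were 206 of the 270 TEC members. Of all 3572 genes of the 3 classes, 54.4% were intronic and 27.0% overlapped no gene. A mean count of 337 was reached by 12.1% of the intronic genes and by 1.35% of those outside other genes. The 235 intronic members shared 177 host genes, and 220 had a protein-coding host. Members in 1 host share its transcription unit and are not independent, and 37 hosts held 95 of them. Of the 233 intronic members that fit in 1 intron of the host's widest transcript, 87 (37.3%) lay in the first intron, which made up 31.8% of host intron length on average. The median member began 31139 bases after its host's start.

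Of the 49 members without a same-strand gene over them, 14 began within 10 kb after the end of one, among them 8 of the 13 outside other genes. Gm37226 began 2416 bases after Mthfsl and had 41.5, 24.0 and 33.3 TPM. E330034L11Rik began 7202 bases after Ensa and had 32.0, 31.0 and 28.4 TPM. Gm43196, at 19.2, 19.3 and 21.8 TPM, began 5339 bases after Gm20559, the gene that also contains Gm43197. Replicate 1 was highest for the first of these and replicate 3 for the last, so the libraries did not order them alike.

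Fewer ends of members than of protein-coding transcripts carried the signal for cleavage and polyadenylation, the hexamer AATAAA or its common variant ATTAAA. One of them stood in the last 50 bases of 59 of 302 member transcripts, or 19.5% (exact 95% interval 15.2 to 24.5%, counting error only), read on the transcript's own strand. The share was 16.1% for intronic members and 29.8% (28.3 to 31.4%) for the other genes of the 3 classes, which had fewer counts. It was 49.6% for protein-coding transcripts of genes with a mean count of at least 337, 43.0% for lincRNA and antisense transcripts and 20.7% for transcripts annotated as retained introns. Of all 50-base windows along the members 6.00% held a hexamer, and of those along the protein-coding transcripts 3.36%. The median GC content was 41.3% in members, 42.7% in the other genes of the 3 classes and 50.3% in protein-coding transcripts. CpG occurred 0.737, 0.861 and 2.57 times per 100 bases in the same order, so low GC and CpG were shared by the classes as a whole. At least 12 A in the last 20 bases occurred in 9.27% of members, 9.13% of the other genes of the 3 classes and 6.99% of protein-coding transcripts. Shown here are the last 60 bases of the 4 intronic members with the highest counts that had a hexamer (Gm43197, Gm44291, Gm45407 and Gm45222) and of the 4 that had none, 5′ to 3′ from the GENCODE M21 transcripts (mm10), with capitals for a hexamer in the last 50 bases.
Gm43197 (chr6:3336772-3336831, minus): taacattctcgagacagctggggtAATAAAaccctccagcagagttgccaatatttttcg
Gm44291 (chr2:38104432-38104491, minus): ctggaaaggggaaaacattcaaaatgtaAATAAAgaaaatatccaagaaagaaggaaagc
Gm45407 (chr8:77368841-77368900, minus): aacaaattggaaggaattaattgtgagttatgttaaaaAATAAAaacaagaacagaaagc
Gm45222 (chr7:90150195-90150254, plus): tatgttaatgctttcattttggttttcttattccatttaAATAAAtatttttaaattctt
Gm37084 (chr1:131086252-131086311, minus): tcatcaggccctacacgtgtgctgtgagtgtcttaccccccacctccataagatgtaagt
A130071D04Rik (chr1:138161820-138161879, minus): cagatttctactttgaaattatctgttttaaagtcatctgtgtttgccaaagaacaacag
Gm37589 (chr3:60539685-60539744, plus): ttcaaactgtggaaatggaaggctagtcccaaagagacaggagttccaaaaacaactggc
Gm37033 (chr1:180364939-180364998, plus): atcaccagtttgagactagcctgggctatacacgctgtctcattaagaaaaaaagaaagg
In Gm45407 and Gm37033 the last 20 bases hold 13 A each, so an A-rich end occurred with a hexamer and without one. A match is a description of the sequence and no evidence that the end is used.

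Intronic members were usually lower than their hosts. Per length, the median difference in log2(TPM + 1) between the 235 intronic members and their hosts was -1.46, -1.47 and -1.58 in replicates 1, 2 and 3, or -1.50 ± 0.06. The median member had 34.0% of the TPM of its host, with quartiles of 18.8 and 59.7%. In every library 200 of 235 were below the host and 25 were above, against 60.1% and 5.87% of all 1943 intronic genes of the 3 classes with no count floor, a set that includes features without counts. Members at a larger share of their host than the median included Gm42659, at 77.6% of Capza1, and Gm45640, at 59.7% of Chd9. Gm37084 exceeded Mapkapk2 by 0.98 ± 0.12 in log2(TPM + 1). Across members, the level of member and host had a Pearson r of 0.47 and a Spearman rho of 0.41 (n = 235), a description over features that share libraries and, in part, hosts. Host TPM is per length of the host's annotated transcripts and member TPM per length of the annotated intronic stretch.

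**Figure D2:**
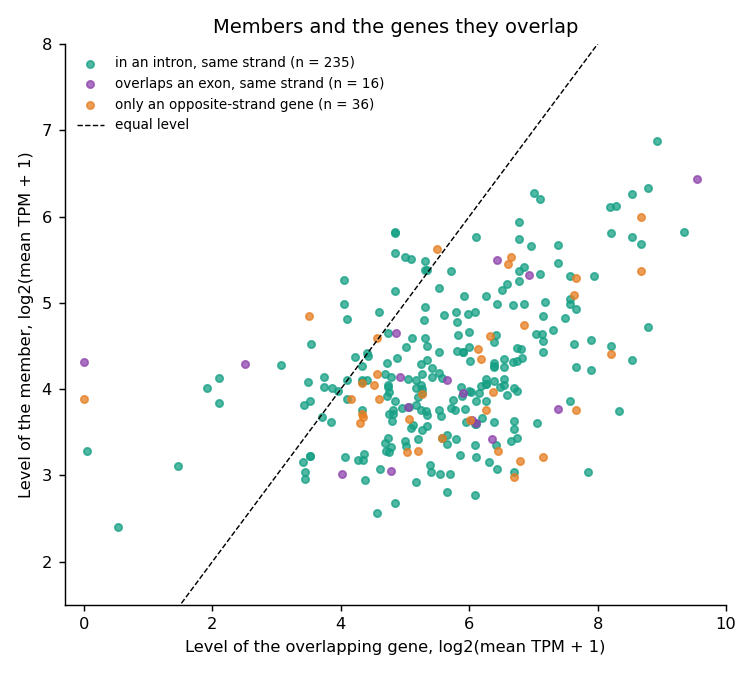
Level of each member against that of the gene it overlaps, both as log2(mean TPM + 1), with the position of the member by colour and the dashed line for equal levels. Most of the 235 intronic members lie below the line, with a median difference of -1.50, and so do most of the 36 that overlap only an opposite-strand gene.

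With hosts chosen by the rule used here, the largest differences in favour of a member came from hosts with low levels. B930086L07Rik (8.89, 7.91 and 9.34 TPM) lies in the first intron of Fgfr2, a growth factor receptor gene listed at 0, 0 and 0.11 TPM. It begins 3079 bases after the start of the annotated Fgfr2 span, which covers 2.96e+06 bases. Another gene on the same strand also overlaps B930086L07Rik and was not compared with it. 6430511E19Rik (16.5, 15.0 and 13.9 TPM) lies in Gm26944 (4.20, 2.73 and 1.44 TPM) and also opposite Pcf11, a gene of transcription termination, whose reads cannot be told apart from its own without strand. Gm47087 (18.5, 16.3 and 14.5 TPM) lies in Maml2, a Notch coactivator gene at 3.72, 2.92 and 3.27 TPM. Each of these members was above its host in every library. Gm47694, the member with the lowest level, had 4.08, 4.44 and 4.29 TPM in the nucleoporin gene Nupl1 at 0.49, 0.41 and 0.45 TPM. Another same-strand gene overlaps Gm47694 as well and was not compared with it. Gm37296 had 24.1, 16.2 and 16.4 TPM and overlaps an exon of Mir30d, a microRNA gene listed at 0, so no ratio to Mir30d can be formed. Another same-strand gene also overlaps Gm37296 and was not compared with it. At the other end, D630030B08Rik lay 4.82 ± 0.22 log2 units below the lipid flippase gene Atp8a1, at 8.67, 7.44 and 5.64 against 229, 256 and 208 TPM. Gm43362 lay 4.59 ± 0.02 below the splicing gene Srsf11, and Gm38262 4.19 ± 0.06 below Srgap2.

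The 36 members that overlap only an opposite-strand gene also stood below it in most cases. Their median difference from that gene was -1.73 ± 0.11, or 27.4% of its TPM, and 32 of 36 were below it in every library. The share over all 542 genes of the 3 classes in that position was not computed, so this count is a description only. Gm44981 had 67.3, 56.6 and 64.2 TPM opposite the taurine transporter gene Slc6a6 at 434, 387 and 402 TPM. Gm43980 had 45.7, 37.6 and 45.3 TPM opposite the splicing activator gene Tra2a at 103, 83.2 and 102 TPM. Gm44981 and Slc6a6 were both lowest in replicate 2, and so were Gm43980 and Tra2a. Gm42502 went the other way, with 27.7, 29.6 and 26.1 TPM opposite the GTPase gene Rac1 at 10.7, 10.1 and 10.2 TPM. Of the 36, 18 overlap an exon of the opposite gene. The use of strand by the counting step is not stated in the labels or README files, so reads of the opposite gene and of the member itself cannot be told apart.

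The level was then set against the surrounding gene on either strand in a wider set, chosen after values of the members had been seen. It holds every gene of the 3 classes, with no count floor, that lies within the introns of exactly 1 other gene, protein-coding, and overlaps nothing else. In genes of at least 10 TPM, 624 such features on the gene's own strand had a median of 7.66 TPM, or 19.7, 19.4 and 18.6% of the gene in replicates 1, 2 and 3. The 72 features on the opposite strand had a median of 5.75 TPM, or 14.6, 14.5 and 15.2%. The library medians do not overlap, at 19.2 ± 0.547% and 14.8 ± 0.378%. Every library measured the same features, so this SD does not measure the uncertainty of a difference between the 2 sets of features. The quartiles over features overlap widely, at 10.7 to 37.5% on the same and 7.01 to 31.4% on the opposite strand. At least 1 TPM was reached by 588 (94.2%) of the same-strand and 63 (87.5%) of the opposite-strand features. In genes of 10 to 50 TPM the shares were 25.2 and 18.1%, and in genes of 50 TPM or more 13.3 and 12.7%, so the difference was small in the highest genes. Where the surrounding gene was under 1 TPM, the median was 0 TPM on both strands, over 711 and 95 features. Of 459 features that neither overlap a gene nor begin within 50 kb after a gene on their strand, 20 (4.36%) reached 1 TPM.

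**Figure D3:**
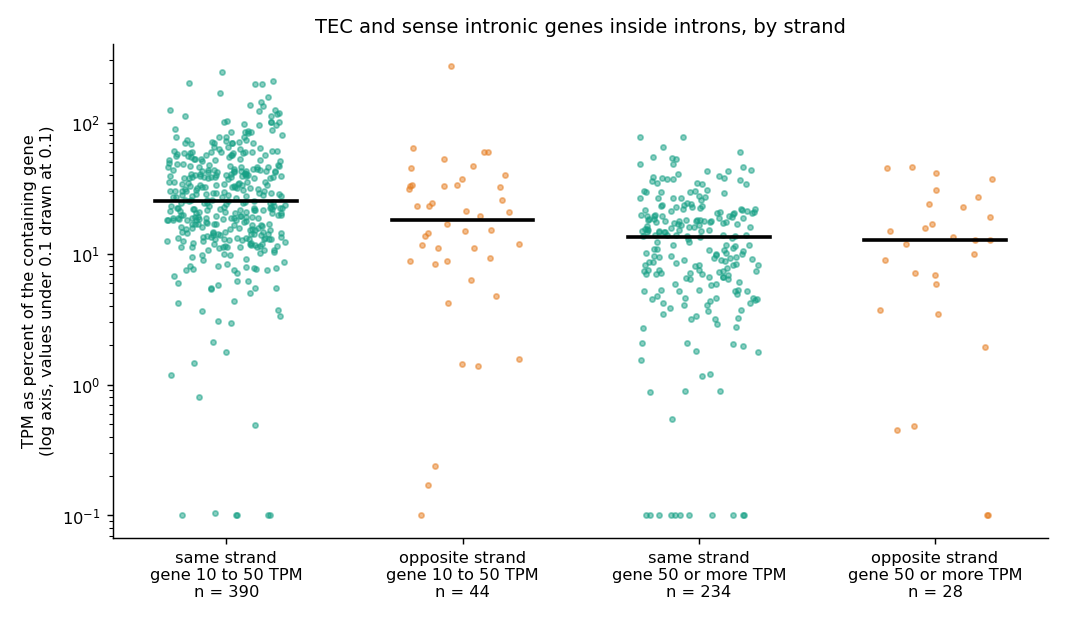
TPM of genes of the 3 classes inside introns of 1 protein-coding gene, as percent of that gene on a log axis, by strand and by the level of the gene. Each point is a feature and the bar is the median, which fell at 25.2 and 18.1% in genes of 10 to 50 TPM and at 13.3 and 12.7% in genes of 50 TPM or more.

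In 15 hosts with at least 3 members, the members could be followed from the start of the host to its end. The first member was above the last in every library in 9 of 15 and below it in 4, against 57.3 and 33.1% of 124 protein-coding hosts of at least 10 TPM with 2 or more genes of the 3 classes. The share of 9 in 15 is close to that background. In Srgap2, Gm29488 had 83.6, 70.5 and 72.2 TPM, Gm37954 had 58.0, 53.5 and 49.0, and Gm38262, the last, had 21.3, 17.0 and 19.5 TPM. The ranges of these 3 members over the libraries do not overlap. In Fli1, an ETS transcription factor gene, 4 members lay in the first intron. Gm37082 had 55.6 ± 1.59, Gm37474 34.1 ± 5.13, Gm38346 46.7 ± 3.11 and Gm38292 13.5 ± 1.07 TPM, so the order broke at the third. In Picalm, a clathrin assembly gene, the level passed from 38.8 ± 7.20 TPM in Gm45223 to 32.1 ± 4.55 in Gm45222, 30.8 ± 1.80 in Gm45221 and 13.6 ± 1.01 in Gm45220. In Med13l, a Mediator gene, it passed from 35.1 ± 7.14 TPM in Gm43788 to 17.2 ± 2.03 in Gm43274. The third, Gm43052, was higher at 20.55 ± 1.76 TPM, and the last, Gm43051, had 12.5 ± 1.67 TPM. Rap1a went the other way from first to last, with 16.3 ± 1.10 TPM in Gm43330, 13.7 ± 0.927 in Gm43329 and 27.1 ± 0.416 in Gm43328. The other hosts whose last member was higher in every library were Kansl1l, Mir99ahg and Snd1. Over the 124 hosts, the median of first minus last was 0.30 ± 0.01 in log2(TPM + 1). Over the 62 whose first and last lay at least 50 kb apart it was 0.22 ± 0.12.

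**Figure D4:**
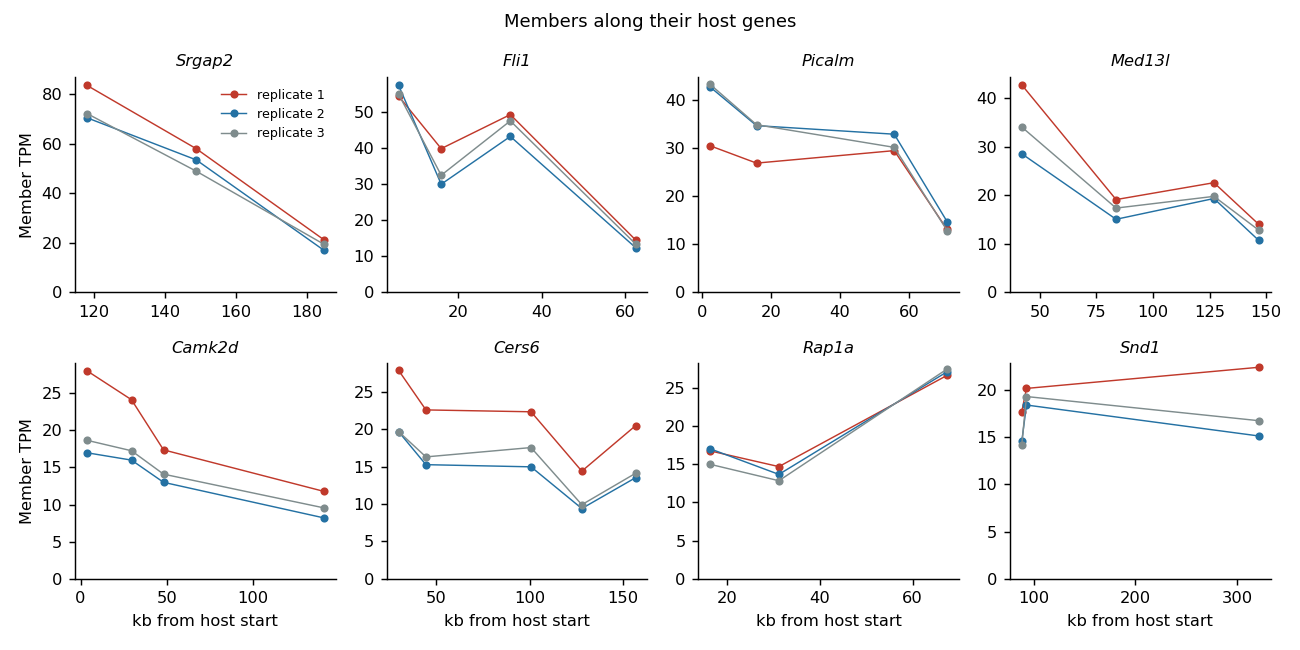
TPM of members against their distance in kb from the annotated start of the host, for 8 hosts chosen after their values were seen. Lines join the members in each library. Levels in Srgap2 pass from 75.4 to 19.3 TPM on average, and in Rap1a the last member is the highest at 27.1 TPM.

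Between libraries, the spread of members was close to that of the 6039 genes with a mean count of at least 337. Those genes have no upper limit of counts and a higher median level, at 26.6 against 16.2 TPM. The 2 sets are therefore not matched for counts. The median SD of log2(TPM + 1) over the 3 libraries was 0.145 for members and 0.143 for the 6039 genes, and the median biological coefficient of variation from edgeR was 0.129 and 0.127. The libraries did not contribute evenly. Replicate 1 was the highest library for 199 members (66.3%), against 43.8% of the 6039 genes. Among the 148 lincRNA and antisense genes with the same count floor, the share was 52.7%, so part of this excess was shared by them. Replicate 2 was the highest for 45 (25.4% of all) and replicate 3 for 56 (30.8% of all). Replicate 2 was the lowest for 160, against 46.0% of all, replicate 3 for 104 (22.9% of all) and replicate 1 for 36 (31.1% of all). Replicate 1 lay a median of 0.17 above the mean of the other libraries in members, 0.13 in those lincRNA and antisense genes and 0.04 in all genes. With TMM scaling, in which replicate 1 deviates by a median close to 0 over all genes, 191 members were still highest there, against 38.2% of all. The count was 194 with DESeq2 size factors (39.1% of all), 193 with read-based TPM (46.1%) and 238 with TPM rescaled without short and ribosomal-like RNAs (57.5%), a scaling that raised the median deviation of replicate 1 to 0.12 in all genes and 0.26 in members. Under that last scaling replicate 1 was the lowest for 21 members (20.9% of all) and replicate 3 the highest for 28 (18.3%). The library that was most often the lowest depended on the scaling. With TMM, replicate 3 was the lowest for 130 members (23.0% of all) and replicate 2 for 126 (37.9%). With DESeq2 size factors, replicate 3 was the lowest for 132 (23.8%) and replicate 2 for 125 (37.8%). Replicate 1 had the most RNA at the start, 1000 ng, and the fewest counts, 14419439, and the part of either in the difference was not tested. Of the 177 hosts, 113 (63.8%) were likewise highest in replicate 1.

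Members and hosts moved together between libraries. The deviation of a library from the mean of the others had a Pearson r between member and host of 0.61, 0.66 and 0.60 in replicates 1, 2 and 3 (n = 235). For members with only an opposite-strand gene it was 0.73, 0.76 and 0.58 (n = 36). The sign was shared by 184, 190 and 169 of the 235 and by 25, 30 and 27 of the 36. Both values of a pair come from the same library and its scaling, so these are descriptions. In replicate 1 the lower quartile of the deviation was above 0 in members (0.034) and in hosts (0.017). Many unrelated pairs would therefore share the sign too, and their share was not computed. The SD of the difference between member and host had a median of 0.121, smaller than the 0.143 of intronic members alone.

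**Figure D5:**
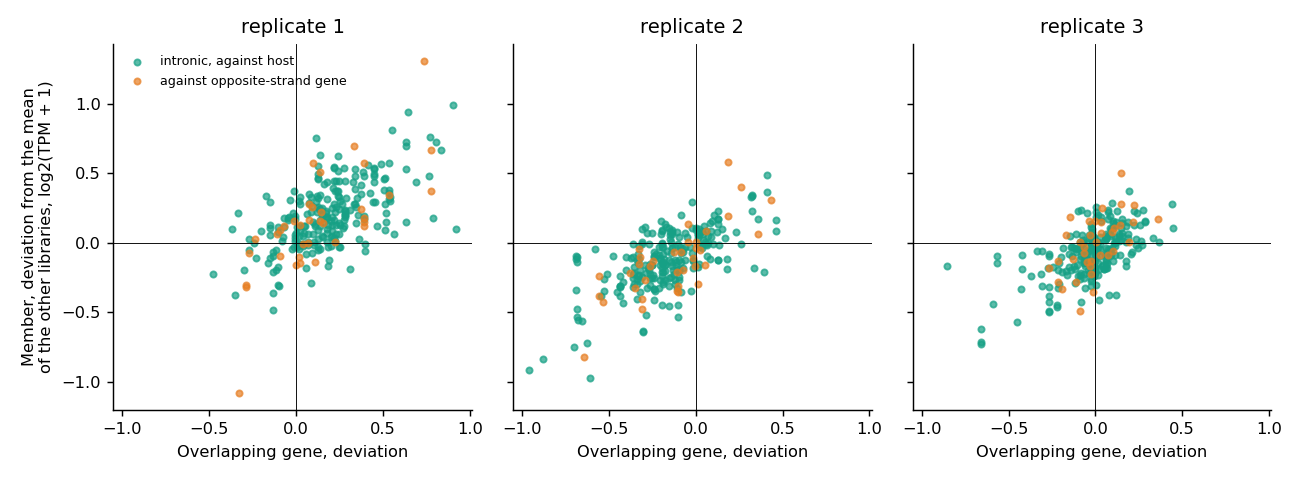
Deviation of each library from the mean of the other libraries in log2(TPM + 1), for members on the vertical axis and the gene they overlap on the horizontal axis, 1 panel per replicate. The points rise together in each panel, with r of 0.61, 0.66 and 0.60 for intronic members and 0.73, 0.76 and 0.58 for those opposite a gene.

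The members with the widest spread, named here, had the same order of libraries as the gene they overlap. Gm42793, which overlaps an exon of the osteopontin gene Spp1, had 24.4, 11.8 and 36.5 TPM, and Spp1 had 30.4, 14.9 and 39.1. Gm45244, opposite the fatty acid activating gene Acsl1, had 24.4, 8.51 and 10.1 TPM, and Acsl1 had 51.0, 26.5 and 34.5. The order of the libraries was the same within each of these pairs, and in the 3 that follow. Gm43445, in the LIM cofactor gene Lmo4, had 20.2, 7.76 and 12.9 TPM beside 69.4, 38.4 and 50.4. Gm29438, in the ganglioside synthase gene St3gal5, had 33.4, 16.1 and 16.6 TPM, and its host was lower at 15.7, 7.03 and 8.94. AC167363.2, opposite the cell cycle inhibitor gene Cdkn1a, had 27.3, 59.96 and 57.9 TPM, lowest in replicate 1 as was Cdkn1a at 37.4, 47.8 and 46.9. AC167363.2 varied more between libraries than Cdkn1a did. It was highest in replicate 2, and the other 4 in replicate 1 or 3. The steadiest members were Gm45290, opposite the RNA demethylase gene Fto, at 13.7, 13.7 and 13.8 TPM, Gm44187, in the endosomal GTPase gene Rab7, at 29.0, 28.5 and 28.4 TPM, and A930004J17Rik, in the splicing gene Srsf4, at 20.6, 20.1 and 20.4 TPM. Fto was also steady, at 23.6, 22.7 and 23.2 TPM, whereas Rab7 ranged from 19.3 to 25.7 TPM.

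Genes of the macrophage response held members at about the share of other genes. Of 151 genes in lists of interferon-stimulated, early inflammatory, immediate early, TLR4 pathway and macrophage identity genes, 4 had a member that lay within them, overlapped them or was within 10 kb, and none of the 24 immediate early genes did. Of the 151, 124 had a mean count of at least 337, and the 4 make up 3.23% of these. The share was 3.57% of the 5738 genes of other classes with at least that count and 0.430% of all 51878. The lists thus lay near the background of genes past that floor. Besides Gm49730 in Parp14 and A130071D04Rik in Ptprc, Gm43430 lay in Nfkb1, which encodes the p105 precursor of an NF-κB subunit, at 20.3, 12.0 and 13.7 TPM beside 93.4, 79.9 and 90.0. Gm43963 lay opposite Irak2, a kinase gene of TLR signalling, at 15.8, 8.75 and 9.94 TPM beside 74.1, 54.9 and 62.6. Replicate 1 was the highest and replicate 2 the lowest for all 4 members. Members were spread unevenly over the genome, with 60 on chromosome 1 and 39 on chromosome 5, and 1 each on chromosomes 4, 11, 19 and X. The annotation itself was uneven, with 510 genes of these classes on chromosome 1, 540 on chromosome 5, 44 on chromosome 4 and 29 on chromosome 11.

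The second quantification, which the authors derived from the reads without the alignments, placed most members lower. The median difference of read-based from alignment-based log2(TPM + 1) was -0.20 ± 0.01 in members, 0.21 ± 0.01 in the 6039 genes and 0.31 ± 0.03 in hosts. In every library 221 members were lower, against 25.3% of all, and 61 were higher, against 64.5%. The order of members was similar, with a Spearman rho of 0.91 (n = 300). A shift of more than 1 log2 unit occurred in 4. Gm45033, in the lipid kinase gene Pik3c2a, had 6.66, 7.32 and 7.60 TPM from alignments and 61.8, 61.3 and 59.7 TPM from reads. Gm42427, outside other genes, had 6.47, 6.64 and 6.32 against 44.6, 39.4 and 40.9 TPM. Gm43633, in the ADP-ribosyltransferase gene Parp11, had 36.5, 28.9 and 28.7 against 92.4, 81.0 and 80.4 TPM. Gm45684, also outside other genes, had 20.6, 21.5 and 16.5 against 52.7, 42.0 and 39.2 TPM. The values from reads and alignments do not overlap for any of these 4, so their levels are uncertain. The largest falls were smaller, in 6430511E19Rik from 15.1 to 10.6, in Gm43737 from 8.68 to 6.03 and in 4932442E05Rik from 13.8 to 9.80 mean TPM, and each of these lies opposite a gene.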

How the data were processed

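Per the README files and headers deposited with each library, the authors made an alignment-based gene table and transcript table and a read-based transcript table on mm10 with GENCODE M21. Tools and strand use are not given in the sources used here. In the gene table the authors deposited expected counts, estimated from the alignments, and TPM. In the read-based table they deposited estimated counts and TPM, summed here per gene. The authors' own standard deviation of each count was used to look at ambiguity only. Positions, hosts and transcript ends came from the GENCODE M21 annotation and transcripts. A host was a gene on the same strand that contains the member, or otherwise overlaps it. Where several did, protein-coding genes came first, and then the lowest identifier. Levels were compared as log2(TPM + 1), with a pseudocount of 1, so differences of low genes are understated. edgeR 4.0.16 (TMM, intercept-only dispersion) and DESeq2 1.42.0 size factors under R 4.3.3 used expected counts rounded to whole numbers, for genes with a mean of at least 10. The edgeR steps were tested on simulated data, and the DESeq2 size factors were not. Other steps used Python 3.11.15, with pandas 2.3.3, numpy 2.4.6, matplotlib 3.10.9 and scipy 1.17.1. With 1 group, no test between conditions was made. Named members were the 6 TEC, 6 sense_intronic and 3 sense_overlapping members (1 exists) with the highest TPM, the 5 with the highest counts, the 5 most and 3 least variable, the 5 highest and 3 lowest against their host, those at listed genes, the 3 most shifted each way between quantifications, and the 3 genes on each side of the threshold. Members opposite or outside genes, those in hosts with several members, those named for a larger share of their host, and Gm45684, were chosen after their values were seen. The members and lists were chosen with earlier results of these data known.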

Additional observations from a re-analysis of the deposited data

How the results depend on the processing

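No paired analysis was possible because the series holds 1 group. Of 67 alternative values, 50 stayed within the replicate spread or within 1.5 times the count, and 17 moved. A floor of 500 counts left 197 genes of the 3 classes and a member minus host difference of -1.39, and read-based values gave 1170 genes past the floor of 200, 1.29% of counts in members and a difference of -2.03. Rescaling TPM without features under 200 bases and 3 ribosomal-like genes gave a median level of 4.96, a median SD of 0.178, 21 members lowest in replicate 1 and 28 highest in replicate 3, and with no floor the median level was 0.0886. Of the 49 members without a same-strand gene over them, 7 began within 5 kb after one and 31 within 50 kb, against 14 within 10 kb. A hexamer was found in 26.8% of the last 100 bases. In genes of at least 50 TPM the intronic shares were 13.3% on the same and 12.7% on the opposite strand, and the read-based opposite-strand share was 16.3%. Leaving out 1 replicate gave 451 to 524 genes past the floor, 1.36 to 1.51% of counts, a median level of 4.01 to 4.14, a median SD of 0.0915 to 0.149 and a difference of -1.52 to -1.47. The SD was lowest without replicate 1, at 0.0915, against 0.135 without replicate 2 and 0.149 without replicate 3. The causes were not tested. Hexamer windows and the strand shares were alternatives chosen after seeing the data. Windows of bases after the annotated ends were not run. The depth of 14419439 counts in the shallowest library limits what can be said of genes of these classes below the floor.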
